A study of Mus musculus with 8 samples.

Results

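The genes described here belong to the folding machinery of the endoplasmic reticulum (ER) and to the unfolded protein response. They are 10 of the 17143 genes in the deposited table and were chosen by name: the chaperones Hspa5 and Hsp90b1, the lectin chaperones Calr and Canx, the disulfide isomerases Pdia3, Pdia4 and Pdia6, and the transcription factors Xbp1, Atf4 and Ddit3. No measured value entered the choice of a gene, although earlier results of these data were known when the set was drawn up. Hippocampal cells of 8 mice aged 5 months were measured by droplet single-cell RNA sequencing, in which each captured molecule carries a unique molecular identifier (UMI).

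The Pb group held 4 mice, 2 females and 2 males, whose dams drank water with 32 ppm Pb-acetate. That water was given from 2 weeks before mating and on through gestation and lactation. The Ctl group held 4 mice, 2 females and 2 males, whose dams did not receive Pb. In both groups the dams and sires were a/a, the mice measured were wild-type a/a offspring, and they drank Pb-free water after weaning. A litter gave up to 1 male and 1 female, and the labels do not tie a mouse to its litter, so p-values measure the spread between these mice. Every mouse was perfused with saline, its hippocampus was taken apart by enzymes under heat, and the cells were frozen and thawed before capture. The aim named in the study's title is to map effects of developmental Pb exposure on the hippocampus, and the comparison asked of these genes is Pb against Ctl within each cell class.

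Proteins that are secreted or placed in membranes fold in the ER, where Hspa5 (BiP) binds unfolded chains, Hsp90b1 (GRP94) acts on later folding steps, Calr and Canx hold glycoproteins by their sugars, and the Pdia enzymes make and rearrange disulfide bonds. When unfolded chains build up, the sensors IRE1, PERK and ATF6 start the unfolded protein response: IRE1 cuts a short segment out of the Xbp1 messenger RNA, PERK signalling raises translation of Atf4, and ATF4 turns on Ddit3 (CHOP), a factor tied to cell death under lasting stress. ATF6 and spliced XBP1 act on chaperone genes through the ER stress response element (ERSE), in which a CCAAT box and a CCACG box stand a fixed distance apart.

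The promoter sequences are shown because several of these genes share that element. It is known from ER chaperone genes, so finding it in genes chosen by name for that role tests nothing. All 10 genes were found in the RefSeq promoter table (build GRCm38.p6, 250 bases before to 50 bases after each gene's start). The ERSE, spelled CCAAT and CCACG with 9 bases of any kind between them and searched on both strands, was present in 5 of the 10 genes, against 39 of all 32851 promoter windows (0.119%). For this and the other sites a gene was counted if any of its windows matched. The shares are over single windows, which belong to 27025 gene symbols, so a gene can have more than 1. GENCODE places the Hspa5 start at chr2:34771970, before the RefSeq start used here, so the Hspa5 element lies within its GENCODE span. The 250 bases before the RefSeq start of Hspa5 (chr2:34771840-34772089, plus strand) read as follows, with the element in capitals.
Hspa5 promoter: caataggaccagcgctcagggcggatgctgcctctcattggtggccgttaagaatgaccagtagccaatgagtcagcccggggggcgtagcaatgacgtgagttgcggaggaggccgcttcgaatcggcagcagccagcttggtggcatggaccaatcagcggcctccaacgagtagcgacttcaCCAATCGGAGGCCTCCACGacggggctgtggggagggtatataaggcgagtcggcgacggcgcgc
The elements of the other genes follow with 10 bases on each side, in the direction of transcription, so that one lying on the opposite strand reads from its CCACG box as CGTGG to its CCAAT box as ATTGG.
Hsp90b1, 212 to 194 bases before the start: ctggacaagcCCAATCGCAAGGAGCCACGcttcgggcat
Hsp90b1, 107 to 89 bases before the start: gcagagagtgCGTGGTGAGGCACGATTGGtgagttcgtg
Calr, 162 to 144 bases before the start: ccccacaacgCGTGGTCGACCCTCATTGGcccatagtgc
Canx, 145 to 127 bases before the start: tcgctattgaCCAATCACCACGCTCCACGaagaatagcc
Pdia6, 98 to 80 bases before the start: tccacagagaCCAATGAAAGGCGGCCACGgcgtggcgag
The Hspa5 element spans chr2:34772025-34772043, those of Hsp90b1 span chr10:86705638-86705656 and chr10:86705533-86705551, that of Calr chr8:84847075-84847093, that of Canx chr11:50325800-50325818 and that of Pdia6 chr12:17266491-17266509. Hsp90b1, Calr and Canx are read from the minus strand, and Hspa5 and Pdia6 from the plus strand. The shorter relative ERSE-II (ATTGG and CCACG with 1 base between them), the XBP1 site TGACGTGG and the composite ATF4 site TGATGNAAN were in 0 of the 10 genes, against 0.0365%, 0.676% and 3.95% of all windows. A CCAAT box of either strand, which every ERSE also contains, was in 9 of the 10 genes, against 37.4% of all windows.

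The part of Xbp1 from which IRE1 removes a segment is shown because the counts cannot see that removal. The stretch marked is 26 bases long and lies in exon 4 of transcript Xbp1-201 (bases 818 to 843; GENCODE vM21, GRCm38, chr11:5524282-5524307, plus strand), here in capitals with its flanks.
Xbp1: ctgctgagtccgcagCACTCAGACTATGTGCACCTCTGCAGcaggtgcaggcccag
It runs from the base after a CNGCAG to the last base of the next CNGCAG, 26 bases on, a spelling that matched 2 stretches of Xbp1-201. The other lies in exon 1, and the one in exon 4 is shown because it is at the known IRE1 site. The cut positions within the repeats were not determined here. The capitals mark the stretch by its repeats and can be offset from the exact segment removed. The exon 4 stretch was also found in the transcripts Xbp1-203 and Xbp1-204. Counts in the deposited table are per gene, so spliced and unspliced Xbp1 messenger RNA were counted together, and phosphorylation of PERK and cleavage of ATF6 were not measured.

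After quality filters 5175 of 5258 cells were kept, 471 to 1157 per Pb mouse and 211 to 567 per Ctl mouse, with 1749079 to 8508064 UMIs per mouse. Of the 5199 cell barcodes deposited, 32 occurred in at least 2 libraries, covering 91 cells, and 2 occurred in all 8 libraries. Clusters were named from lists of marker genes as Microglia-like (1291 cells), Oligodendrocyte-like (1276), Endothelial-like (581), Pericyte-like (316), Astrocyte-like (272), Smooth muscle-like (148) and Neuron-like (110). A further cluster of 740 cells, called cluster 0, was led by hemoglobin genes beside endothelial genes. Its highest score was for the erythrocyte list. It stayed unnamed because 2 markers of that list were detected in at least 10% of its cells, under the 3 required. The tissue label is hippocampus, and the Neuron-like cells were few and led by Snhg11, Meg3, Nhlh2, Reln and Lhx1. Library Ctl M2 stood apart: it held 46 of the 95 Choroid plexus-like cells and all 69 cells of 1 oligodendrocyte cluster. Values are CPM, the UMIs of a gene per 1000000 UMIs of a mouse's summed cells, which are not divided by gene length, so they compare a gene between samples and not one gene with another. Lists of 4 values run through replicates F1, F2, M1 and M2 of a group, where F is female and M is male.

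No member passed the test in any class, and most fitted differences were above 0. Over the 8 classes and 78 tests of a member, 57 log2 fold changes of Pb over Ctl were above 0, their median was 0.17, and 10 had an unadjusted p under 0.05, all of them higher in Pb. Of the edgeR tests of all genes over these classes 49.2% were above 0 and 1.97% had an unadjusted p under 0.05 in the higher direction, while 0.00217% had an adjusted p under 0.05. None of the members had an adjusted p under 0.05 by edgeR's quasi-likelihood test with Benjamini-Hochberg adjustment over all genes of the class, and the smallest was 0.865. DESeq2 gave 6 of 78 tests an unadjusted p under 0.05 (0.829% of 120407 tests of all genes over the 8 classes, since it was run without the count filter) and limma-voom 12 of 78 (4.69%). Neither gave a member an adjusted p under 0.05, which limma-voom gave to 0.00217% of its tests and DESeq2 to 0.00852% of the 105593 tests for which it gave an adjusted p. Tests of 1 gene in several classes share mice, so the count of 57 is a description.

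The classes differed in how many members lay above 0. In Oligodendrocyte-like cells all 10 members did, against 49.1% of the 7972 genes tested there, and 4 of 10 had an unadjusted p under 0.05 in the higher direction, against 1.87% of genes. Every Pb mouse lay above every Ctl mouse for 3 members there, against 1.71% of genes. In cluster 0 these counts were 7 of 10 (49.2% of 6946 genes), 4 of 10 (1.81%) and 3 of 10 (1.18%). The median member log2 fold change was 0.25 in Oligodendrocyte-like cells and 0.19 in cluster 0, where the medians of all genes rounded to 0.00. In Oligodendrocyte-like cells 10 of 10 members were also above 0 without the cells of shared barcodes and without the cluster of Ctl M2 alone, each with a median of 0.23, alternatives chosen after seeing the data. Leaving out 1 mouse at a time moved the count with an unadjusted p under 0.05 in Oligodendrocyte-like cells to 2 without Pb M1 and to 6 without Pb F2 or without Ctl F2, with 10 of 10 above 0 in each. In cluster 0 it moved to 2 without Pb M1 or without Ctl M2, with 8 of 10 above 0.

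Cluster 0 and Endothelial-like cells held endothelial markers at a like summed level, a mean of 39399 CPM in the Pb mice and 36979 CPM in the Ctl mice in cluster 0, and of 37802 CPM in the Pb mice and 36015 CPM in the Ctl mice in Endothelial-like cells. With doublets kept, or with stress genes left out of clustering, the cluster that matched cluster 0 was named Endothelial-like. In Endothelial-like cells 6 of 10 members were above 0 (50.2% of 7106 genes), 1 had an unadjusted p under 0.05 (1.89% of genes were so and higher) and 2 had groups that did not overlap (1.58%). The count of 1 moved to 0 without Ctl F2 and to 2 without Ctl F1 or without Ctl M2. In Pericyte-like cells the counts were 8 of 10 (49% of 5991 genes), 1 (2.29%) and 2 (1.52%), and the median member log2 fold change was 0.27. Without Ctl M2 that median was 0.16, and the count of 1 moved to 0 without Pb M1, Pb M2 or Ctl M2 and to 2 without Pb F2 or without Ctl F2. In Smooth muscle-like cells, fitted without Ctl F2 because it had under 10 such cells, 7 of 10 were above 0 (49.8% of 5192 genes), 0 had an unadjusted p under 0.05 (1.96%) and 2 had groups that did not overlap (2.72%).

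Microglia-like, Astrocyte-like and Neuron-like cells gave no member an unadjusted p under 0.05, against 1.95%, 2.94% and 1% of genes that were so and higher. Members above 0 were 8 of 10 in Microglia-like cells (48.5% of 8119 genes), 5 of 9 in Astrocyte-like cells (48.5% of 2790 genes) and 6 of 9 in Neuron-like cells (48.9% of 1997 genes). No member had groups that did not overlap in these classes, against 1.18%, 6.56% and 3.91% of genes. Pdia4 did not pass the count filter in Astrocyte-like or Neuron-like cells. The Astrocyte-like fit left out Pb F2 and Ctl M1 and the Neuron-like fit Pb M1 and Ctl F1, each with under 10 cells of the class. Across all genes an adjusted edgeR p under 0.05 was reached by 1 gene, Gm26870 in Astrocyte-like cells (0.0358% of genes there), and by 0% of genes in the other 7 classes.

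**Figure D1:**
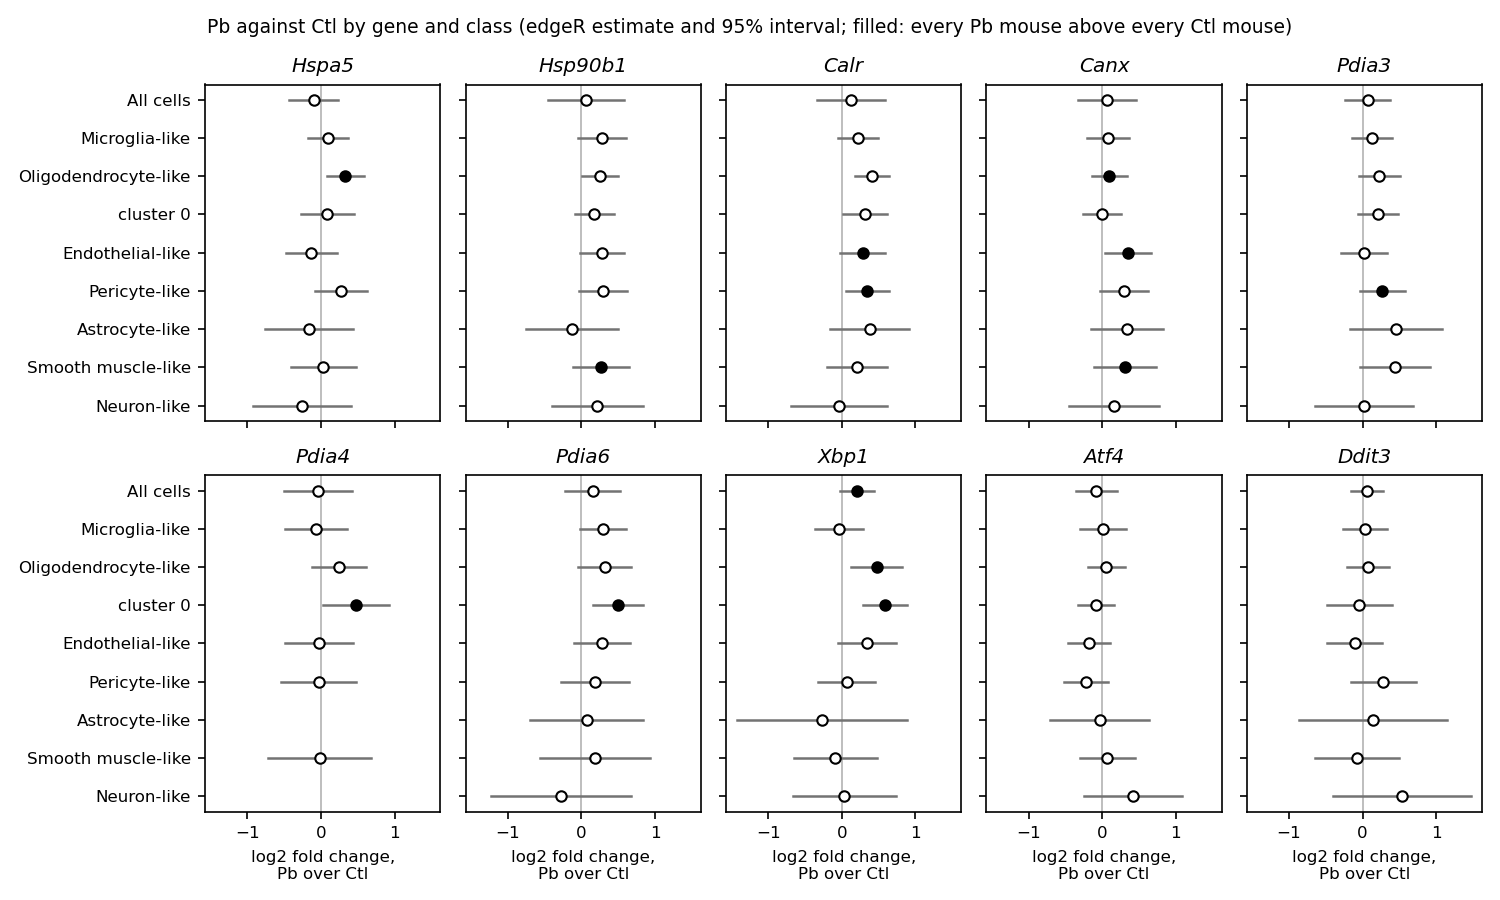
Log2 fold change of Pb over Ctl (horizontal axis, edgeR estimate with its 95% interval) in all cells and each class (rows), with 1 panel per member. Filled points mark every Pb mouse above every Ctl mouse, and in the Oligodendrocyte-like row the points of all 10 members lie right of 0.

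Among the chaperones, Hspa5 (ENSMUSG00000026864, chr2:34771970-34777547, plus strand, GRCm38) was highest in Choroid plexus-like and Microglia-like cells among the 10 classes with at least 10 cells in 3 or more mice, over which the levels of all members are ordered here. Its level was 831 ± 184 CPM (SD, n = 3) in Choroid plexus-like cells and 783 ± 79.8 CPM (SD, n = 8) in Microglia-like cells. The next of those classes, Neuron-like, stood at 348 ± 112 CPM (SD, n = 6), and the lowest, Oligodendrocyte-like, at 205 ± 28.6 CPM (SD, n = 8). The 8 Microglia-like values lay between 644 and 904 CPM and did not overlap the Neuron-like ones, while 7 of the 9 steps between neighbouring classes were within 1 SD. Among clusters of Microglia-like cells Hspa5 averaged 963 ± 168 CPM (SD, n = 8) in the 473 cells of one led by Cx3cr1, Tagap and P2ry12, and 469 ± 113 CPM (SD, n = 7) in the 177 cells of one led by P2ry13, Cx3cr1 and P2ry12. Outside the 10 classes, Hspa5 averaged 988 CPM in Fibroblast-like and 778 CPM in Perivascular macrophage-like cells. Each value came from Pb F1 and Pb M1 alone, the 2 mice with at least 10 such cells. Levels between classes and clusters are descriptions, because the classes were cut from the same cells.

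For Hspa5 the smallest p between exposure groups was in the class where its level was lowest. Oligodendrocyte-like cells had 227, 238, 237 and 213 CPM in the Pb mice, against 184, 193, 192 and 157 CPM in the Ctl mice. All 4 Pb mice lay above all 4 Ctl mice, and Ctl M2 was the lowest of the 8. The log2 fold change was 0.33 (SE 0.12, 95% interval 0.08 to 0.58), with an unadjusted edgeR p of 0.0121 and an adjusted p of 0.9998. Leaving out 1 mouse at a time kept it within 0.27 to 0.39. Over the 8 classes it was above 0 in 5 and ran between -0.25 and 0.33.

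Hsp90b1 (ENSMUSG00000020048, chr10:86690209-86705509, minus strand) folds a set of secreted and membrane proteins that includes Toll-like receptors and integrins. Its level was highest in Choroid plexus-like cells, 982 ± 334 CPM (SD, n = 3), followed by Oligodendrocyte precursor-like cells, 492 ± 185 CPM (SD, n = 5), and lowest in Neuron-like cells, 244 ± 55.8 CPM (SD, n = 6). For every member the Oligodendrocyte precursor-like level rests on 4 Pb mice and 1 Ctl mouse. For Hsp90b1 these stood at 538 ± 178 CPM (SD, n = 4) and at 310 CPM. From the second class downward every neighbouring step was within 1 SD. In all, 3 annotated genes overlap it, among them the pseudogene 1810014B01Rik on the opposite strand, and the sources used here do not say whether reads were counted by strand.

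Hsp90b1 was above 0 in 7 of 8 classes, with a median log2 fold change of 0.26. Oligodendrocyte-like cells had 334, 384, 462 and 487 CPM in the Pb mice, against 298, 335, 323 and 425 CPM in the Ctl mice. The groups overlapped, since Ctl M2 lay above Pb F1 and Pb F2, and Ctl F2 was level with Pb F1. The log2 fold change was 0.25 (SE 0.11, 95% interval 0.01 to 0.50), with an unadjusted edgeR p of 0.0457 and an adjusted p of 0.9998, and it stayed within 0.17 to 0.32 with 1 mouse left out. In Smooth muscle-like cells, without Ctl F2, it had 368, 443, 392 and 391 CPM in the Pb mice, against 341, 303 and 337 CPM in the Ctl mice. Those groups did not overlap, and the log2 fold change was 0.26 (SE 0.18, 95% interval -0.12 to 0.64).

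The lectin chaperone Calr (calreticulin, ENSMUSG00000003814, chr8:84841850-84846934, minus strand) is soluble in the ER and also binds calcium there. It was highest in Choroid plexus-like cells at 982 ± 333 CPM (SD, n = 3) and Oligodendrocyte precursor-like cells at 611 ± 229 CPM (SD, n = 5), and lowest in Neuron-like cells at 268 ± 59.6 CPM (SD, n = 6). The Oligodendrocyte precursor-like level was 666 ± 221 CPM (SD, n = 4) in the Pb mice and 388 CPM in the 1 Ctl mouse. No neighbouring classes had ranges apart, and 8 of 9 steps were within 1 SD. It was the member with an unadjusted p under 0.05 in the most classes, 3 of 8.

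In Oligodendrocyte-like cells Calr had 409, 328, 499 and 432 CPM in the Pb mice, against 260.0, 302, 337 and 353 CPM in the Ctl mice. Pb F2 lay below Ctl M1 and Ctl M2, and the other 3 Pb mice lay above every Ctl mouse. The log2 fold change was 0.41 (SE 0.11, 95% interval 0.17 to 0.64), with an unadjusted edgeR p of 0.00222, an adjusted p of 0.9998 and a range of 0.35 to 0.46 with 1 mouse left out. Pericyte-like cells had 404, 381, 400.2 and 402 CPM in the Pb mice, against 293, 343, 332 and 261 CPM in the Ctl mice. There the groups did not overlap and the Pb mice spread less than the Ctl mice, with a log2 fold change of 0.34 (SE 0.14, 95% interval 0.05 to 0.64) and an unadjusted edgeR p of 0.023. In cluster 0 it was 0.31 (SE 0.14, 95% interval 0.02 to 0.61), with overlapping groups. In Endothelial-like cells the groups did not overlap at 360.4, 323, 404 and 328 CPM in the Pb mice, against 318, 231, 310.0 and 307 CPM in the Ctl mice, and the log2 fold change was 0.28 (SE 0.14, 95% interval -0.02 to 0.59).

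Canx (calnexin, ENSMUSG00000020368, chr11:50293961-50325673, minus strand) is the membrane-anchored partner of Calr. Its level was 522 ± 69.7 CPM (SD, n = 3) in Choroid plexus-like cells, 481 ± 76.7 CPM (SD, n = 6) in Astrocyte-like cells and 373 ± 61.6 CPM (SD, n = 5) in Oligodendrocyte precursor-like cells. The lowest was Endothelial-like cells at 195 ± 33.5 CPM (SD, n = 8). In that class Canx had 258, 191, 195 and 232 CPM in the Pb mice, against 167, 166, 175 and 171 CPM in the Ctl mice. All 4 Pb mice lay above all 4 Ctl mice, with a log2 fold change of 0.34 (SE 0.15, 95% interval 0.03 to 0.66), an unadjusted edgeR p of 0.0329 and an adjusted p of 0.9999.

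Canx also had groups that did not overlap in Oligodendrocyte-like cells, at 283, 282, 282 and 285 CPM in the Pb mice, against 280.4, 278, 219.5 and 278 CPM in the Ctl mice. The Pb mice were nearly level there and 3 of the Ctl mice lay just below them, with Ctl M1 far lower, and the log2 fold change was 0.10 (SE 0.11, 95% interval -0.14 to 0.33). Smooth muscle-like cells, without Ctl F2, had 280.4, 204, 217 and 235 CPM in the Pb mice, against 183, 177 and 202 CPM in the Ctl mice. Those groups were apart with a log2 fold change of 0.32 (SE 0.20, 95% interval -0.11 to 0.74). Over the 8 classes 7 values were above 0, and the other, in cluster 0, was at 0 to within its error.

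Pdia3 (ERp57, ENSMUSG00000027248, chr2:121413775-121438687, plus strand) works on glycoproteins held by Calr and Canx. Over the 10 classes ordered it varied least of the 10 members, with its highest class 2.45 times its lowest: 455 ± 97.6 CPM (SD, n = 3) in Choroid plexus-like cells, 414 ± 49.8 CPM (SD, n = 8) in Microglia-like cells and 186 ± 39.1 CPM (SD, n = 6) in Neuron-like cells. All 9 neighbouring steps were within 1 SD. Fibroblast-like cells, with 2 Pb mice, stood outside that order at 517 CPM. It was the only member above 0 in all 8 classes, with a median log2 fold change of 0.22, and in none was the unadjusted p under 0.05. Pericyte-like cells had 276, 279, 325 and 319.6 CPM in the Pb mice, against 232, 274, 255 and 216 CPM in the Ctl mice. The groups did not overlap and the log2 fold change was 0.27 (SE 0.15, 95% interval -0.04 to 0.58). Its largest value, 0.46 (SE 0.30, 95% interval -0.17 to 1.08), was in Astrocyte-like cells, where 3 Pb and 3 Ctl mice were fitted and the groups overlapped. The opposite-strand gene Catsper2 overlaps Pdia3.

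Pdia4 (ERp72, ENSMUSG00000025823, chr6:47796141-47813430, minus strand) varied most between those 10 classes, 5.28 times from 187 ± 35.1 CPM (SD, n = 3) in Choroid plexus-like cells down to 35.4 ± 19.6 CPM (SD, n = 6) in Neuron-like cells. Ependymal-like cells of 1 mouse, outside that order, stood at 240.1 CPM. Pdia4 was also the member with the fewest UMIs behind a value in 7 of the 9 units, all cells included. In the mouse with fewest these were 5 in Endothelial-like cells, and 2 in Astrocyte-like and 1 in Neuron-like cells, where Pdia4 did not pass the count filter. In cluster 0 it had 58.0, 83.5, 56.8 and 61.1 CPM in the Pb mice, against 33.0, 55.2, 45.2 and 44.4 CPM in the Ctl mice. The groups did not overlap and Pb F2 stood above the other Pb mice, with a log2 fold change of 0.47 (SE 0.21, 95% interval 0.02 to 0.92) and an unadjusted edgeR p of 0.0406. With 1 mouse left out it ran within 0.35 to 0.60, and the largest unadjusted p was 0.121. In Oligodendrocyte-like cells the log2 fold change was 0.24 (SE 0.17, 95% interval -0.12 to 0.61) and ran within 0.10 to 0.37 with 1 mouse left out, and in the other 4 classes tested it was below 0.

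Pdia6 (P5, ENSMUSG00000020571, chr12:17266545-17284770, plus strand), an isomerase that also acts on IRE1 and PERK, was highest in Oligodendrocyte precursor-like cells at 279.6 ± 81.2 CPM (SD, n = 5) and lowest in Smooth muscle-like cells at 75.9 ± 34.4 CPM (SD, n = 7). The Oligodendrocyte precursor-like mice were again 4 Pb and 1 Ctl. Cluster 0 had 99.6, 119, 134 and 115 CPM in the Pb mice, against 74.9, 84.3, 92.6 and 74.7 CPM in the Ctl mice. All 4 Pb mice lay above all 4 Ctl mice, with a log2 fold change of 0.50 (SE 0.16, 95% interval 0.16 to 0.84), an unadjusted edgeR p of 0.00623 and an adjusted p of 0.999. It was 0.32 (SE 0.17, 95% interval -0.04 to 0.68) in Oligodendrocyte-like cells and 0.29 (SE 0.15, 95% interval -0.02 to 0.60) in Microglia-like cells, with overlapping groups in both. Atp6v1c2 overlaps Pdia6 on the opposite strand.

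**Figure D2:**
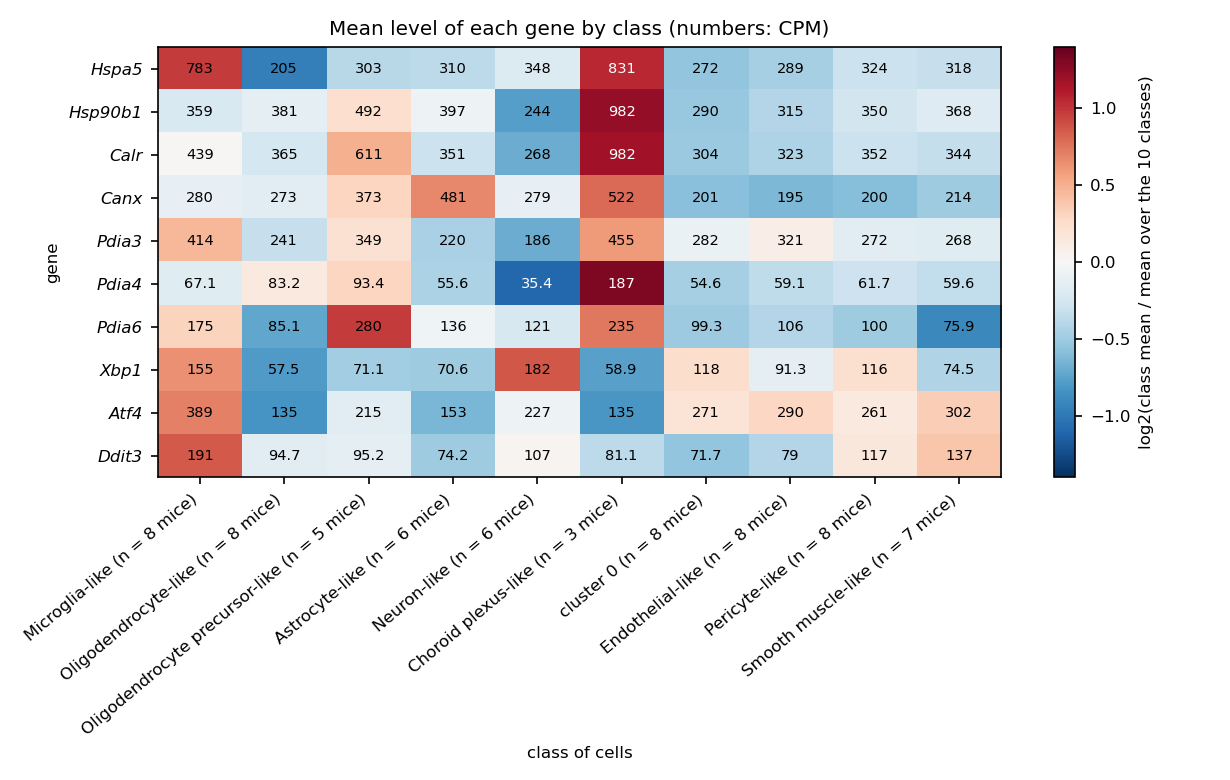
Mean CPM over mice of each member (rows) in the 10 classes with at least 10 cells in 3 or more mice (columns), printed in each cell; colour is the log2 ratio to the gene's mean over the 10 classes. Hspa5, Atf4 and Ddit3 are high in Microglia-like cells, and Hspa5, Hsp90b1, Calr, Canx, Pdia3 and Pdia4 are highest in Choroid plexus-like cells.

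Xbp1 (ENSMUSG00000020484, chr11:5520659-5525893, plus strand) had a different order of classes from the chaperones. Its level was 182 ± 32.9 CPM (SD, n = 6) in Neuron-like cells and 155 ± 17.3 CPM (SD, n = 8) in Microglia-like cells, while Choroid plexus-like cells, the highest class of 6 other members, were at 58.9 ± 15.8 CPM (SD, n = 3) and Oligodendrocyte-like cells were lowest at 57.5 ± 10.9 CPM (SD, n = 8). Neuron-like and Microglia-like cells differed by less than 1 SD.

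The member with the smallest unadjusted p was Xbp1 in cluster 0, which had 134, 129, 145 and 160.4 CPM in the Pb mice, against 83.9, 93.5, 101 and 95.7 CPM in the Ctl mice. The lowest Pb mouse stood well above the highest Ctl mouse. The log2 fold change was 0.58 (SE 0.14, 95% interval 0.29 to 0.88), with an unadjusted edgeR p of 0.00069 and an adjusted p of 0.999 over 6946 genes. With 1 mouse left out it ran within 0.56 to 0.63, and the largest unadjusted p was 0.0031.

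In Oligodendrocyte-like cells Xbp1 had 74.1, 56.9, 70.7 and 64.5 CPM in the Pb mice, against 49.7, 49.4, 49.0 and 45.8 CPM in the Ctl mice. The 4 Ctl mice lay within a narrow band and every Pb mouse was above it. The log2 fold change was 0.48 (SE 0.16, 95% interval 0.13 to 0.82), with an unadjusted edgeR p of 0.0103 and a range of 0.40 to 0.54 with 1 mouse left out. Xbp1 was thinly counted there, with 17 UMIs in the mouse with fewest. In Endothelial-like cells the log2 fold change was 0.34 (SE 0.19, 95% interval -0.05 to 0.74) with overlapping groups, and over the 8 classes 5 values were above 0, with the lowest at -0.27.

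Atf4 (ENSMUSG00000042406, chr15:80255184-80257541, plus strand) and Ddit3 (ENSMUSG00000025408, chr10:127290774-127296288, plus strand) had fitted differences on both sides of 0. Atf4 was above 0 in 4 of 8 classes, with a median log2 fold change of -0.01, and Ddit3 in 5 of 8, with a median of 0.05. Neither had an unadjusted p under 0.05 in any class, and their smallest were 0.145 and 0.188. In no class did either have groups that did not overlap. ATF4 protein is set mainly by translation, which these counts do not measure.

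Both factors were highest in Microglia-like cells. Atf4 averaged 389 ± 46.1 CPM (SD, n = 8) there, 302 ± 19.2 CPM (SD, n = 7) in Smooth muscle-like cells and 135 ± 9.36 CPM (SD, n = 8) in Oligodendrocyte-like cells. Ddit3 averaged 191 ± 17.0 CPM (SD, n = 8) in Microglia-like cells and 71.7 ± 16.7 CPM (SD, n = 8) in cluster 0, its lowest. Among clusters of Microglia-like cells Ddit3 was at 242 ± 29.3 CPM (SD, n = 8) in the one of 473 cells and at 78.1 ± 49.8 CPM (SD, n = 7) in the one of 177 cells, the same order as Hspa5. Mars and Gm4189 overlap Ddit3 on the opposite strand, and the annotation gives Ddit3 a second gene identifier at the same place.

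**Figure D3:**
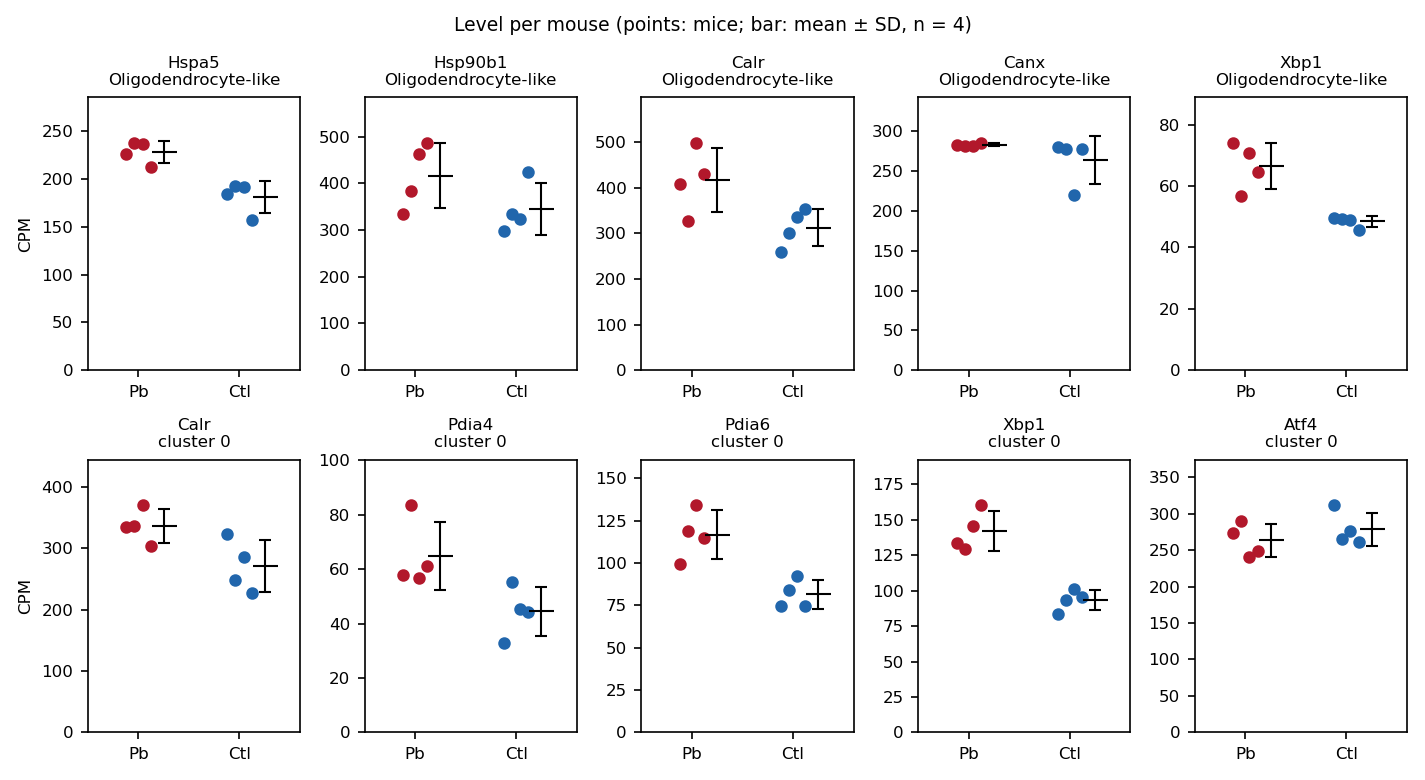
CPM per mouse (vertical axis, from 0) for members in Oligodendrocyte-like cells and cluster 0, Pb left of Ctl; points are mice and the bar is the mean ± SD (n = 4). The Pb and Ctl points of Xbp1 do not overlap in either class, while those of Calr do in both.

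The same mice sat at the ends for several members. Of the 10 members in Oligodendrocyte-like cells, Pb F2 was the lowest Pb mouse for 6 and Ctl F1 the lowest Ctl mouse for 6. Over the 5 classes that held all 8 mice, Ctl M2 had the lowest Hspa5 in 4, Pb M1 the highest Calr in 4 and Ctl F1 the highest Atf4 in 4. Members of 1 class come from the same summed libraries, so their fold changes are not independent of each other.

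Over all cells together 7 of 10 members were above 0 (45.8% of 12989 genes), none had an unadjusted p under 0.05 by edgeR, DESeq2 or limma-voom (2.99% of genes were so and higher by edgeR, and 0% had an adjusted edgeR p under 0.05), and the median log2 fold change was 0.07. Without Ctl M1 the median was -0.0051 with 5 of 10 above 0, and without Ctl M2 it was 0.18 with 9 of 10 above 0 and 3 with an unadjusted edgeR p under 0.05. In such a sum fewer cells of a type and less RNA per cell cannot be told apart. Xbp1 was the 1 member whose groups did not overlap (2.37% of genes), with 102, 113, 105 and 112 CPM in the Pb mice, against 93.2, 91.5, 98.7 and 84.8 CPM in the Ctl mice. Its log2 fold change was 0.21 (SE 0.10, 95% interval -0.02 to 0.44).

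For Hsp90b1 and Calr 1 library moved the fold change over all cells. Hsp90b1 had 375, 363, 426 and 443 CPM in the Pb mice, against 281, 303, 308 and 654 CPM in the Ctl mice. Ctl M2 stood above every other mouse, and the log2 fold change was 0.07 (SE 0.23, 95% interval -0.45 to 0.58), against 0.39 without Ctl M2 and -0.075 without Ctl M1. Calr had 461, 369, 469 and 421 CPM in the Pb mice, against 323, 308, 343 and 611 CPM in the Ctl mice. The log2 fold change of Calr was 0.12 (SE 0.20, 95% interval -0.34 to 0.58), and it ran within 0.02 to 0.38 with 1 mouse left out, highest without Ctl M2.

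Choroid plexus-like cells, where both genes were highest, numbered 38, 0, 1 and 0 in the Pb mice, against 0, 10, 0 and 46 in the Ctl mice. In an alternative chosen after seeing the data these cells were left out of the sum. Ctl M2 then had 396 CPM of Hsp90b1 and 355 CPM of Calr. Of the 10 members 9 were above 0 (49.4% of 12742 genes), and 3 had an unadjusted edgeR p under 0.05 in the higher direction (3.33% of genes). Calr had a log2 fold change of 0.34 (SE 0.10, unadjusted p 0.00665), Pdia6 of 0.32 (SE 0.12, unadjusted p 0.0257) and Hsp90b1 of 0.29 (SE 0.11, unadjusted p 0.0231), each with an adjusted edgeR p of 0.868. Without those cells Calr lay between 369 and 469 CPM in the Pb mice, against 295 and 355 CPM in the Ctl mice.

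**Figure D4:**
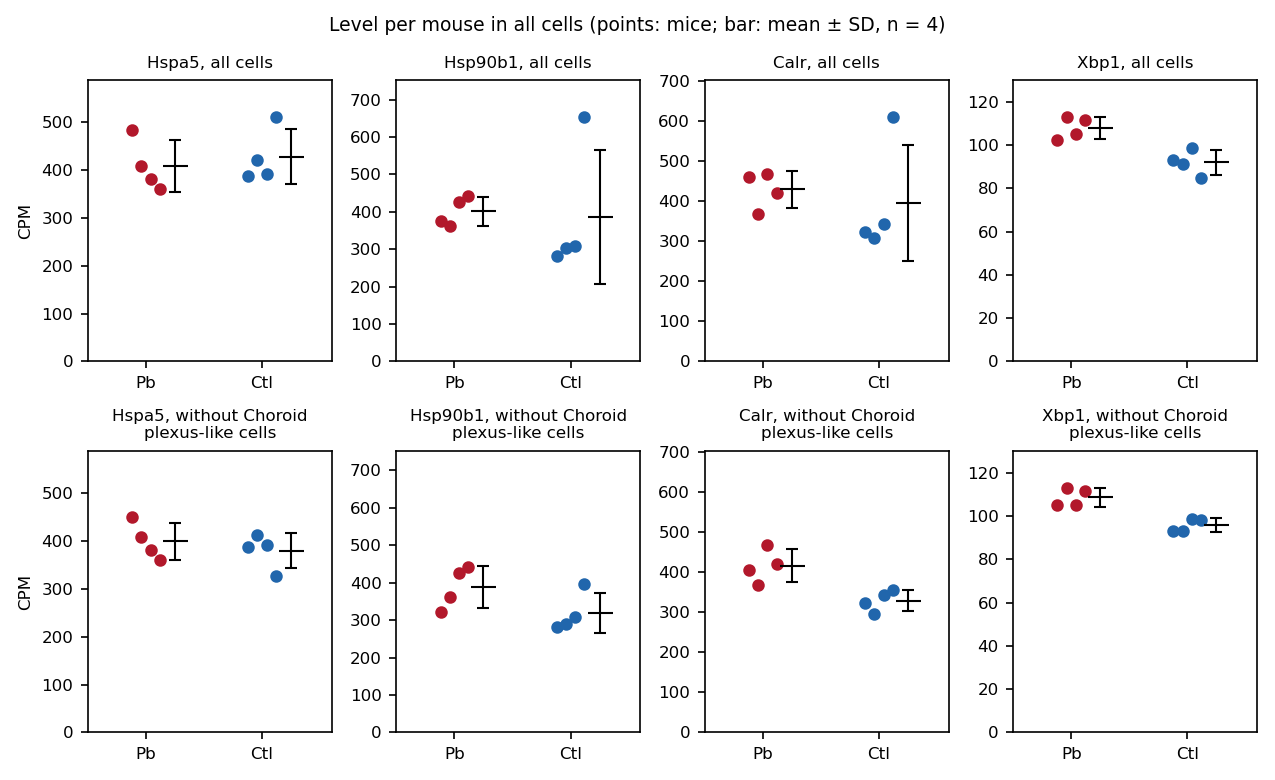
CPM per mouse (vertical axis, from 0) over all cells, in the upper row with and in the lower row without Choroid plexus-like cells, Pb left of Ctl; points are mice and the bar is the mean ± SD (n = 4). With all cells Ctl M2 stands at 654 CPM of Hsp90b1 and 611 CPM of Calr, and without those cells at 396 and 355 CPM.

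Other genes of the pathway, taken from lists drawn up with earlier results of these data known, had medians near 0 in Oligodendrocyte-like cells, the sensor list apart. In Oligodendrocyte-like cells the 16 other ER chaperones tested had a median log2 fold change of 0.03, with 9 above 0 and 2 with an unadjusted p under 0.05, both higher. The 8 other disulfide isomerases and oxidases had a median of 0.01 with 4 above 0, the 13 genes of ER-associated degradation 0.04 with 12 above 0, and the 14 translocation and secretory targets of XBP1 0.03 with 8 above 0. The 14 ATF4 targets had a median of 0.05 with 8 above 0. The 8 genes of the list of sensors and related signalling genes had a median of 0.19 with 6 above 0, and 1 had an unadjusted p under 0.05, which was higher. That list had a median of -0.26 in cluster 0, with 3 of 7 above 0 and 1 with an unadjusted p under 0.05, lower. In Pericyte-like cells it was 0.42, with 5 of 5 above 0. The cluster 0 medians of the other lists were 0.05 for chaperones, 0.02 for isomerases and oxidases, 0.12 for degradation, -0.04 for XBP1 targets and 0.10 for ATF4 targets. No gene of these lists had an adjusted edgeR p under 0.05 in any class.

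The other ER chaperone with an unadjusted p under 0.05 in both Oligodendrocyte-like cells and cluster 0 was Manf, a secreted protein of the ER that is made under ER stress. Its log2 fold change was 0.41 (SE 0.14, unadjusted edgeR p 0.0112) in Oligodendrocyte-like cells and 0.50 (SE 0.16, unadjusted edgeR p 0.00715) in cluster 0. Of the ATF4 targets, Psat1 and Phgdh, enzymes of serine synthesis, had log2 fold changes of 0.63 (SE 0.15, unadjusted edgeR p 0.00258) and 0.53 (SE 0.16, unadjusted edgeR p 0.00938) over all cells. Within Oligodendrocyte-like cells, where both genes averaged most of the classes tested, the log2 fold changes were 0.21 (SE 0.11, unadjusted edgeR p 0.0660) for Psat1 and 0.19 (SE 0.11, unadjusted edgeR p 0.0993) for Phgdh. The classes with an unadjusted p under 0.05 were Endothelial-like cells for Psat1, at 0.995 (SE 0.38, unadjusted edgeR p 0.0189), and Pericyte-like cells for Phgdh, at 1.04 (SE 0.35, unadjusted edgeR p 0.00838). Oligodendrocyte markers summed over all cells to a mean of 22664 CPM in the Pb mice and 18589 CPM in the Ctl mice, with overlapping ranges, and their part in the values over all cells was not tested.

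Herpud1, a component of ER-associated degradation, and Ppib, a prolyl isomerase of the ER, had unadjusted p under 0.05 in the lower direction alone. Herpud1 had a log2 fold change of -1.03 (SE 0.48, unadjusted edgeR p 0.0395) in Astrocyte-like cells and -0.48 (SE 0.23, unadjusted edgeR p 0.0488) in Smooth muscle-like cells, against 0.08 (SE 0.23) in Oligodendrocyte-like cells and 0.15 (SE 0.14) in cluster 0. Ppib was at -0.57 (SE 0.27, unadjusted edgeR p 0.0448) in Astrocyte-like cells and -0.89 (SE 0.39, unadjusted edgeR p 0.0345) in Neuron-like cells, and at 0.10 (SE 0.13) in Oligodendrocyte-like cells.

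Heat shock and dissociation genes also differed between the groups in fitted value, but no gene of either list had an adjusted edgeR p under 0.05 in any class. The 19 cytosolic heat shock genes were all above 0 in Oligodendrocyte-like cells (49.1% of all genes tested there), with a median log2 fold change of 0.37. Of the 19, 10 had an unadjusted p under 0.05, all higher (1.87% of all genes). Their summed level there was 14041 to 18607 CPM in the Pb mice, against 11150 to 12726 CPM in the Ctl mice, and the groups did not overlap. In cluster 0 the sum was 20626 to 25461 CPM in the Pb mice, against 19101 to 22962.0 CPM in the Ctl mice, with overlap, and the median was 0.10. In Astrocyte-like cells the sum was 5942 to 6288 CPM in the Pb mice, against 3586 to 4831 CPM in the Ctl mice, without overlap. In the remaining classes the sums overlapped. The heat shock median and the members' median were both above 0 in every class. They were 0.65 and 0.09 in Microglia-like, 0.45 and 0.27 in Pericyte-like and 0.35 and 0.15 in Endothelial-like cells. In Smooth muscle-like cells they were 0.55 and 0.13, in Astrocyte-like 0.39 and 0.07 and in Neuron-like 0.22 and 0.03.

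Immediate early genes, which respond to dissociation, had a median log2 fold change of -0.31 in Oligodendrocyte-like cells and -0.23 in cluster 0. Of these genes 1 of 18 and 1 of 17 were above 0, against 49.1% and 49.2% of all genes. Their summed levels overlapped between the groups in every class. Over all cells the median share of mitochondrial UMIs per cell was 2.93% to 3.44% in the Pb mice, against 3.31% to 4.45% in the Ctl mice (exact permutation p 0.0571, 2-sided over 70 arrangements, where the smallest possible is 0.0286). The heat shock sum over all cells gave the same exact permutation p, 0.0571. The part of these measures in the members' differences was not tested.

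**Figure D5:**
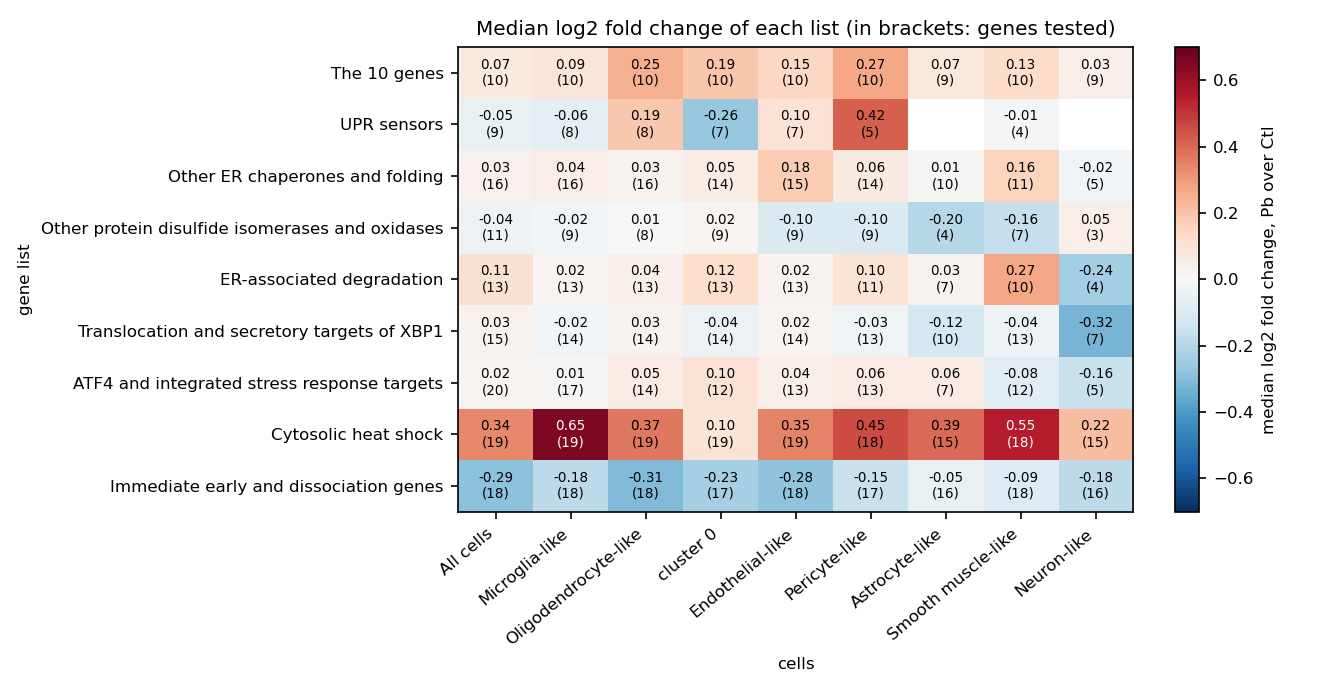
Median log2 fold change of Pb over Ctl for the members and each further gene list (rows) in all cells and each class (columns), with the number of genes tested in brackets; empty cells had no gene tested. The heat shock row is above 0 in every column and the immediate early row below 0.

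Summed markers of other cell types did not separate the groups in Oligodendrocyte-like cells or cluster 0: the Pb and Ctl ranges overlapped for every marker list. The 5 hemoglobin and erythrocyte genes summed to between 24.0 and 37900.1 CPM in cluster 0 of the Pb mice, against 180.0 and 18559 CPM in that of the Ctl mice. Choroid plexus markers reached 15692 CPM in Oligodendrocyte-like cells of the Ctl mice, against 5612 CPM at most in those of the Pb mice.

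Sex, which was balanced over the exposure groups, gave no member an adjusted edgeR p under 0.05 either. Of the 78 tests of male over female within classes 47 were above 0 and 5 had an unadjusted p under 0.05, and the smallest adjusted p was 0.806. Of the tests of all genes over these classes 49.5% were above 0, 4.88% had an unadjusted p under 0.05 and 0.0998% an adjusted one. In Oligodendrocyte-like cells 7 of 10 members were above 0 and 3 had an unadjusted edgeR p under 0.05, all higher in males, against 3.79% of genes in either direction. Hsp90b1 had a fitted value above 0 in 7 of 8 classes, with a log2 fold change of 0.31 (SE 0.11, unadjusted edgeR p 0.0161) in Oligodendrocyte-like cells.

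Whether the exposure difference itself differed between the sexes was tested by the product term in the 5 classes with all 8 mice. Of 50 tests 32 were above 0, 1 had an unadjusted p under 0.05 and 0 had an adjusted p under 0.05 by edgeR. Of the tests of all genes over these classes 49.3% were above 0, 3.43% had an unadjusted p under 0.05 and 0.00777% an adjusted one. The 1 was Ddit3 in Pericyte-like cells, with a product term of 0.97 (SE 0.37, unadjusted edgeR p 0.0169) on the log2 scale, where 4.38% of genes had an unadjusted p under 0.05.

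Across classes the members ranged from alike to opposite in pattern. Over 8 classes the Pearson correlation of mean log2(CPM + 5) was highest between Hsp90b1 and Pdia4, 0.84, and lowest between Hsp90b1 and Xbp1, -0.72. Each class mean shares its libraries and depth with the others, so these are descriptions. Among 6634 genes at or over 50 CPM in at least 1 class, the closest in pattern to Hspa5 was Cryl1 (r = 0.977), followed by Cmklr1, Plcl2, Prkcd and Limd2. The closest to Xbp1 was Ubap2l (r = 0.941), to Atf4 Pim1 (r = 0.985) and to Ddit3 Csnk1e (r = 0.953), each over 8 classes.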

How the data were processed

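Droplet single-cell RNA sequencing of hippocampal cells from 8 mice was used (4 Pb, 4 Ctl). The authors deposited 1 table of whole-number UMI counts, not normalized, with genes as rows and cells as columns. The submitters' processing notes list Cell Ranger, Seurat and mm10. What each did, its version, the annotation, any filter and the use of strand: not given in the sources used here. Every deposited cell had at least 999 genes and 1137 UMIs and every gene was present in at least 3 cells, so cells or genes below such limits cannot be counted here. All columns were mapped to a mouse by the start of their names.

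Cells with over 20% mitochondrial UMIs (53) and doublets called by Scrublet (33, 0.628% of cells) were removed, leaving 5175. Counts were scaled to 10000 per cell and clustered in scanpy 1.11.5 (2000 variable genes, 30 components, 15 neighbours, Leiden resolution 1, 24 clusters), and clusters were named from marker lists. A variable gene set that held 0 of the members was used, so levels by class did not rest on clustering by the members themselves. UMIs were summed per mouse and class, for classes with at least 10 cells in at least 3 mice per group, 8 classes in all.

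The sums were tested with edgeR 4.0.16 (R 4.3.3; TMM, filterByExpr, quasi-likelihood, sex as covariate, Benjamini-Hochberg over all genes of a class). DESeq2 1.42.0, limma-voom (limma 3.58.1), each mouse left out in turn, the replicate block and other filters and clusterings were alternatives. The scripts were tested on simulated Oligodendrocyte-like sums with changes larger than any member fold change of Pb over Ctl. Recovery of changes as small as those of the members was not tested. The members, lists and tests were chosen with earlier results of these data known; all 10 members are named, and of each further list at most 4 genes with an unadjusted p under 0.05 in at least 2 units. Counting error and spread between mice limit precision: a member's value in a mouse rested on 1 to 4124 UMIs. Protein sequences were not used here.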

Additional observations from a re-analysis of the deposited data

Results flagged for a closer look

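In each group of 4 mice the highest or lowest value was marked where its gap to the nearest mouse, divided by the group's range, was above 0.829. Chance marks about 5% of such groups, and 16 of 130 groups were marked. No member's exposure difference differed between the sexes past the adjusted threshold.

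Over all cells Ctl M2 was far above the other Ctl mice for Hsp90b1, at 654 CPM against 281 to 308 CPM, and for Calr, at 611 CPM against 308 to 343 CPM. The same mouse was the highest Ctl mouse for Hsp90b1 in Endothelial-like cells, at 360.1 CPM against 252 to 265 CPM, and the lowest for Hspa5 in cluster 0, at 168 CPM against 291 to 303 CPM. Ctl M2 also held 46 of the 95 Choroid plexus-like cells.

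In Oligodendrocyte-like cells Pb F2 was low for Pdia4, at 58.2 CPM against 96.9 to 102 CPM in the other Pb mice. Among Ctl mice there, Ctl M1 was low for Canx, at 219.5 CPM against 278 to 280.4 CPM, and Ctl F1 was low for Pdia3, at 172 CPM against 233 to 241 CPM.

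In cluster 0 Pb F2 was high for Pdia4, at 83.5 CPM against 56.8 to 61.1 CPM, and low for Pdia3, at 232 CPM against 324 to 330.4 CPM. Pb M2 was low for Hspa5 there, at 195 CPM against 299.5 to 313 CPM, and Pb M1 was high for Hsp90b1, at 349 CPM against 286 to 296 CPM.

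In Pericyte-like cells Pb F2 was low for Calr, at 381 CPM against 400.2 to 404 CPM, and high for Xbp1, at 139 CPM against 113 to 116 CPM. In Microglia-like cells Pb F1 was low for Calr, at 407 CPM against 485 to 498 CPM. In Endothelial-like cells Ctl F2 was low for Calr, at 231 CPM against 307 to 318 CPM, and Ctl F1 for Pdia4, at 27.9 CPM against 65.9 to 71.1 CPM, where that value rested on 5 UMIs.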

How the results depend on the processing

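No member had an adjusted p under 0.05 in any of 180 fits of Pb against Ctl over 21 alternatives, 3 of them chosen after seeing the data; the smallest was 0.180, without the count filter, and 0.352 elsewhere. Of 448 alternative values of the 23 named fold changes 447 kept their sign. The other was Hsp90b1 over all cells, -0.075 without Ctl M1 and 0.39 at most, without Ctl M2. The cause was not tested. The alternatives drew on the same mice as the main fits, so a kept sign is no independent test. The count also does not cover fold changes left unnamed. Some of those changed sign when a mouse was dropped, such as Hspa5 in cluster 0 (-0.08 to 0.25) and Xbp1 in Neuron-like cells (-0.32 to 0.62). Of 190 levels by class 185 moved by less than 1 SD when the total left out stress genes or doublets were kept.

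Genes past an adjusted p of 0.05, 0 with edgeR except 1 in Astrocyte-like cells, were 32 over all cells, 8 in Microglia-like, 1 in Oligodendrocyte-like and 0 in Astrocyte-like cells with DESeq2. Without the count filter they were 60 in Microglia-like, 30 in Endothelial-like, 25 in Oligodendrocyte-like, 22 in cluster 0, 19 in Pericyte-like, 16 in Smooth muscle-like, 5 in Astrocyte-like and 1 in Neuron-like cells. Without the sex covariate Astrocyte-like cells had 0. With 1 mouse left out they ran between 0 and 5 in Microglia-like cells (5 without Pb F2), 0 and 2 in Oligodendrocyte-like (2 without Ctl M2), 0 and 3 in cluster 0 (Pb M1), 0 and 4 in Endothelial-like (Ctl F2), 0 and 3 in Pericyte-like (Ctl F2), 0 and 11 in Astrocyte-like (Pb M1) and 0 and 5 in Smooth muscle-like cells (Pb M1, Ctl M2). Members above 0 in Astrocyte-like cells ran between 3 (without Pb M1) and 7.

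For the product of exposure and sex the counts without the filter were 51 in Microglia-like, 44 in Oligodendrocyte-like, 15 in Endothelial-like and 11 in Pericyte-like cells and 21 in cluster 0, and with limma-voom 0 in cluster 0 and 0 in Pericyte-like cells, against 1 and 2 with edgeR.

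Over all cells, deviations of same-numbered mice from their group's mean correlated at -0.40, -0.15, -0.04 and -0.22. Those sums also carry differences in cell mix, so the correlations cannot tell whether same-numbered mice were handled together. With the replicate block in place of sex 3 genes passed in Smooth muscle-like, 3 in Neuron-like and 0 in Astrocyte-like cells, and 0 elsewhere.

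Some alternatives gave no value: Endothelial-like cells when stress genes were left out of clustering, Pericyte-like and Smooth muscle-like cells at Leiden resolution 0.5, Smooth muscle-like cells with doublets kept, shared barcodes left out or Ctl F2 left out. Depth limits Pdia4 most, with 1 to 16 UMIs in the mouse with fewest in 6 classes.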
